A study of Homo sapiens with 8 samples.

Results

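The human CD1 family has 5 genes, and each is read out by 1 probe on the Illumina HumanRef-8 BeadChip used here, a glass array that measures the abundance of RNA through beads carrying gene probes. The probes of CD1A, CD1B, CD1C, CD1D and CD1E were taken by the platform's symbols. They are 5 of 22184 probes and stand for 5 of 16578 genes on the array. The family itself was chosen with earlier results of these data known. All 5 probes were detected above background on all 8 arrays, and all 5 are among the 13130 probes, standing for 10681 genes, that were kept for testing.

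The lines compared were TR1, TR2 and TR3, TRAIL-resistant subclones of Jurkat cells, and WT, the untreated parent, Jurkat, which is an established human line of T cell leukaemia. TRAIL is a death ligand related to tumour necrosis factor that induces apoptosis in sensitive cells, and the subclones were grown out under TRAIL at 1000 ng/mL for 12 weeks. Each line has 2 arrays, A and B, made from biological duplicates. Each resistant line is a single subclone and an unselected subclone is not analysed here, so selection by TRAIL, subcloning and time in culture cannot be told apart. The p-values measure the spread between duplicates of a line and not the spread between independent clones.

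CD1 proteins share the fold of MHC class I heavy chains and pair with beta-2 microglobulin, but their groove holds lipids instead of peptides. CD1a, CD1b and CD1c, together called group 1, show lipid antigens at the cell surface to T cells. CD1d, the group 2 member, presents to natural killer T cells. CD1e stays inside the cell, where a soluble form in lysosomes helps to load lipids onto the others. In the thymus CD1 proteins mark immature cortical thymocytes, the stage that many T cell leukaemias resemble, and outside it they are best known from dendritic cells.

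The 5 genes lie side by side on chromosome 1, in the order CD1D, CD1A, CD1B, CD1C and CD1E in the GRCh38.p14 annotation. The RefSeq promoter table of that build, which runs from 250 bases before to 50 bases after a start site, matched 4 of the 5 genes with 6 windows, the exception being CD1B. The windows of CD1E and CD1D are printed because, among the genes with a window, these had the lowest p-values for a difference among the lines. All lie on the plus strand and read 5′ to 3′. Capitals mark GGAAG or its reverse complement CTTCC, the core letters recognised by ETS transcription factors, the family of FLI1, which is described with the promoter factors.
CD1E, chr1:158353644-158353943: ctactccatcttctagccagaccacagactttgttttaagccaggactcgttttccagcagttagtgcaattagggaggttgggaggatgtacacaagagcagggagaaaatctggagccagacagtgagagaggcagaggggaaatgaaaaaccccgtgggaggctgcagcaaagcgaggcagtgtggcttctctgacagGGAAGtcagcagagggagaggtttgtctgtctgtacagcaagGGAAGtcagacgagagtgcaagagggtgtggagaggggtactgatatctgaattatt
CD1D, first start, chr1:158179697-158179996: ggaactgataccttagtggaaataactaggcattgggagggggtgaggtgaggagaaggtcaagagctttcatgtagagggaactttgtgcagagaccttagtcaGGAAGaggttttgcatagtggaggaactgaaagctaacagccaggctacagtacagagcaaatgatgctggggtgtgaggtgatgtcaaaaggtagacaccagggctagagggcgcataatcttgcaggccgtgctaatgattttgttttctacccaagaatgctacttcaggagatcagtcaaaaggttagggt
CD1D, second start, chr1:158180645-158180944: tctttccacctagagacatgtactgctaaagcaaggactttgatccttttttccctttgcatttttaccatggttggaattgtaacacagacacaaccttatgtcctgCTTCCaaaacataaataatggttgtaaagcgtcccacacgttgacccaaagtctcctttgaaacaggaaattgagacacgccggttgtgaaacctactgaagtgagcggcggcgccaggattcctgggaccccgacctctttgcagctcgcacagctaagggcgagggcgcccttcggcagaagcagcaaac

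The CD1E window held 2 matches to GGAAG on either strand, and the CD1D windows held 1 each. The other windows held 4 and 2 matches at the starts of CD1A and 4 at the start of CD1C. Of 35116 promoter windows of the same length, 71.9% held at least 1 match. The E-box letters CANNTG were found 0 times in the CD1E window, 1 time and 0 times in those of CD1D, 3 times and 1 time in those of CD1A and 4 times in that of CD1C, against at least 1 match in 68.7% of all windows. No base was shared between a GGAAG match and an E-box match. The GC box letters GGGCGG, present in 45% of all windows, and the TATA letters TATAAA, present in 11.5%, were searched on both strands and had 0 matches in the 6 windows.

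Over all 8 arrays, between 12408 and 13437 probes were detected at a detection p-value under 0.05, which is 55.9% to 60.6% of the array, and the duplicates of a line correlated at 0.9941 to 0.9967 across probes. The T cell label was checked with 11 T cell genes on the array, of which 10 were detected on all 8 arrays, CD3D, CD3E, CD3G, CD247, CD2, CD7, CD28, LCK, TAL1 and BCL11B. CD4 was detected on 5 arrays. In limma's test 0 of the 11 were called in any pair of lines, against 0 to 3 at an unadjusted p under 0.05 per pair and 0 to 2 called with the replicate block. Over all probes, limma called 0.297% to 4.70% per pair, and 10.1% to 17.7% had an unadjusted p under 0.05. Arrays of whole cultures do not tell fewer cells that express a gene from less RNA per cell.

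The main test fitted no replicate block. It called differences among the lines for CD1B and CD1E and not for the other 3 CD1 genes. On the authors' processed values, the F test among the lines also called CD1D. The adjusted p was 0.015 without a block and 0.00054 with the replicate number as a block. CD1B and CD1E, a group 1 presenter and the lysosomal loading helper, were both highest in TR2, by 1.74-fold and 2.24-fold over TR1. The CD1E signal was dim, and its log2 difference of 1.16 became 0.71 without background correction. Against WT, CD1B was 1.93-fold higher in TR2, and CD1E was lower in TR1, at 0.624 of the WT level. The CD1E level in TR2 was 1.4-fold that of WT, which the main test did not call (adjusted p = 0.14). CD1D had its highest mean in WT but did not pass the main test in any comparison. No difference of CD1A or CD1C passed. By the moderated F test of any difference among the 4 lines, 2 of the 5 CD1 probes were called at an adjusted p under 0.05, beside 3.34% of all probes tested (438 of 13130).

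**Figure D1:**
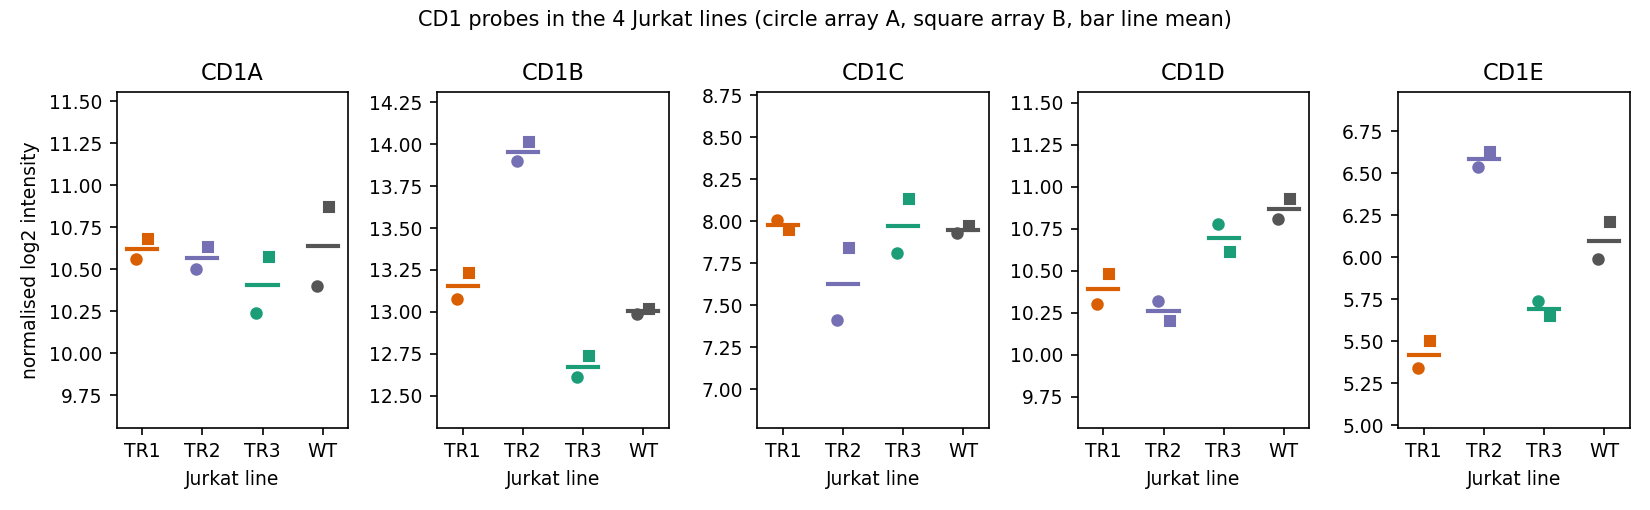
Level of each CD1 gene on each array, as log2 normalised intensity, with TR1, TR2 and TR3 left of WT. Circles are array A, squares are array B and bars are the means of the 2 arrays of a line. CD1B reaches 13.90 and 14.01 in TR2 and CD1E is at 5.34 and 5.50 in TR1. The line means lie between 10.41 and 10.64 for CD1A and between 7.63 and 7.98 for CD1C. Each panel has its own axis, and levels of different probes are not comparable.

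CD1B (probe ILMN_1726230) presents mycobacterial lipids and self lipids from deep, late endosomal compartments. Its raw signal was 8240.2 and 9009.4 in TR1, 16431 and 16554 in TR2, and 6949.1 and 7201.4 in TR3, against 8550.2 and 7696 in WT. After normalisation these became log2 intensities of 13.08 and 13.23 in TR1, 13.90 and 14.01 in TR2, 12.61 and 12.74 in TR3, and 12.99 and 13.02 in WT. Both TR2 arrays stand above all others, both TR3 arrays stand below all others, and no pair of lines overlaps. With 2 arrays per line, 39% to 49.2% of all tested probes did not overlap in a given pair of lines. The means of raw signal were 8625 ± 544 in TR1, 16493 ± 87 in TR2, 7075 ± 178 in TR3 and 8123 ± 604 in WT (SD, n = 2 each).

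The log2 difference of CD1B was 0.95 (95% confidence interval 0.71 to 1.20, adjusted p = 0.0047) for TR2 against WT, and it ranked 53rd in size among the 13130 probes. The gene was also higher in TR2 than in TR1, by 0.80 (0.55 to 1.04, adjusted p = 0.0026). It was lower in TR3 than in TR2, at a difference of -1.28 (-1.53 to -1.04, adjusted p = 0.00043), or 0.411 of the TR2 level. In order of level the lines ran TR2, TR1, WT and TR3, and the neighbours TR1 and WT differed by 0.15 with an SE of 0.11 (adjusted p = 0.53). TR3 differed from WT by -0.33 (-0.58 to -0.09, adjusted p = 0.37) and from TR1 by -0.49 (adjusted p = 0.067). In the authors' processed values with the replicate number as a block, both TR3 differences were called, at -0.33 against WT (adjusted p = 0.039) and -0.48 against TR1 (adjusted p = 0.00074). The difference from TR1 was also called on those values without the block (adjusted p = 0.022). The call against WT in TR2 was lost without TR2 array B, at 0.90 (adjusted p = 0.054), and the calls between clones were kept without any 1 array.

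CD1E (probe ILMN_1784272) encodes the member that does not present at the surface but edits lipids in lysosomes for the others. Its raw signal was 79.724 and 78.635 in TR1, 141.68 and 138.27 in TR2, and 100.21 and 95.669 in TR3, against 105.08 and 106.35 in WT. On the log2 scale it was 5.34 and 5.50 in TR1, 6.54 and 6.63 in TR2, 5.74 and 5.65 in TR3, and 5.99 and 6.21 in WT. No pair of lines overlaps, as for 39% to 49.2% of all probes in a given pair, with TR2 highest and TR1 lowest. The medians of raw signal over all probes lay between 68.08 and 82.98 on the 8 arrays, so the probe reads near the middle of the array. With 55.9% to 60.6% of all probes detected, a signal at this level is dim. The size of its differences depended on the background correction, as given below.

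Line means of CD1E were 5.42 ± 0.11 in TR1, 6.58 ± 0.06 in TR2, 5.70 ± 0.06 in TR3 and 6.10 ± 0.15 in WT (SD, n = 2 each). The difference between TR2 and TR1 was 1.16 (0.90 to 1.42, adjusted p = 0.00041), which ranked 130th in size among the 13130 probes. TR3 was lower than TR2, at a difference of -0.89 (-1.15 to -0.63, adjusted p = 0.0065), or 0.54 of the TR2 level. TR1 was lower than WT, at a difference of -0.68 (-0.94 to -0.42, adjusted p = 0.017). The remaining differences did not pass, at 0.48 (0.22 to 0.74, adjusted p = 0.14) for TR2 against WT, -0.41 (adjusted p = 0.29) for TR3 against WT and 0.27 (adjusted p = 0.32) for TR3 against TR1. The order was TR2, WT, TR3 and TR1, and in the main test no neighbours in this order differed at the threshold.

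Without background correction the CD1E differences shrank to 0.71 for TR2 against TR1 (adjusted p = 0.00057), -0.56 for TR3 against TR2 (0.0085 adjusted) and -0.39 for TR1 against WT (0.039 adjusted). With the replicate block on the authors' values the difference between TR2 and WT was called, at 0.32 (adjusted p = 0.036). The call for TR1 against WT was lost without TR1 array A (-0.60, adjusted p = 0.14), WT array B (-0.57, 0.11) or TR1 array B (-0.76, 0.054), as well as on the arrays of TR1 and WT alone (-0.68, 0.069). The call for TR3 against TR2 was lost without TR2 array B (-0.84, 0.069), TR3 array A (-0.93, 0.059) or TR3 array B (-0.85, 0.075). That for TR2 against TR1 was kept without any 1 array.

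CD1D (probe ILMN_1719433), which presents lipids such as alpha-galactosylceramide to natural killer T cells, had a raw signal of 1224.9 and 1353 in TR1, 1362.7 and 1150.1 in TR2, and 2009.1 and 1699.3 in TR3, against 1903.5 and 1899.2 in WT. The log2 values were 10.30 and 10.48 in TR1, 10.32 and 10.20 in TR2, 10.78 and 10.61 in TR3, and 10.81 and 10.93 in WT. After normalisation both WT arrays lie above every clone array, TR3 comes next, and TR1 and TR2 overlap. The gap between WT array A (10.81) and TR3 array A (10.78) is narrow. In raw signal TR3 array A, at 2009.1, was above both WT arrays. Of all tested probes, 39% to 49.2% did not overlap in a given pair of lines. The means were 10.39 ± 0.12 in TR1, 10.26 ± 0.09 in TR2, 10.69 ± 0.12 in TR3 and 10.87 ± 0.09 in WT (SD, n = 2 each).

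The CD1D difference from WT was -0.48 in TR1 (-0.75 to -0.22, adjusted p = 0.073), -0.61 in TR2 (-0.87 to -0.34, adjusted p = 0.063) and -0.18 in TR3 (adjusted p = 0.66), none of which passed the threshold. Between clones the differences were -0.13 for TR2 against TR1 (adjusted p = 0.64), 0.30 for TR3 against TR1 (adjusted p = 0.27) and 0.43 for TR3 against TR2 (adjusted p = 0.19). With the replicate block on the authors' values, the gene was called lower in TR1 than in WT, at a difference of -0.47 (adjusted p = 0.0031), lower in TR2 than in WT, at a difference of -0.59 (adjusted p = 0.0008) and higher in TR3 than in TR2 by 0.42 (adjusted p = 0.014). The authors' values without the block also gave calls against WT for TR1 (adjusted p = 0.033) and TR2 (adjusted p = 0.021). The F test over the lines moved across the threshold as well, with an adjusted p of 0.053 in the main test and 0.00054 with the block. It also passed without a block, at an adjusted p of 0.015 on the authors' values and 0.015 without background correction. With an offset of 50 the adjusted p was 0.018, and with the trended robust prior 0.0054.

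**Figure D2:**
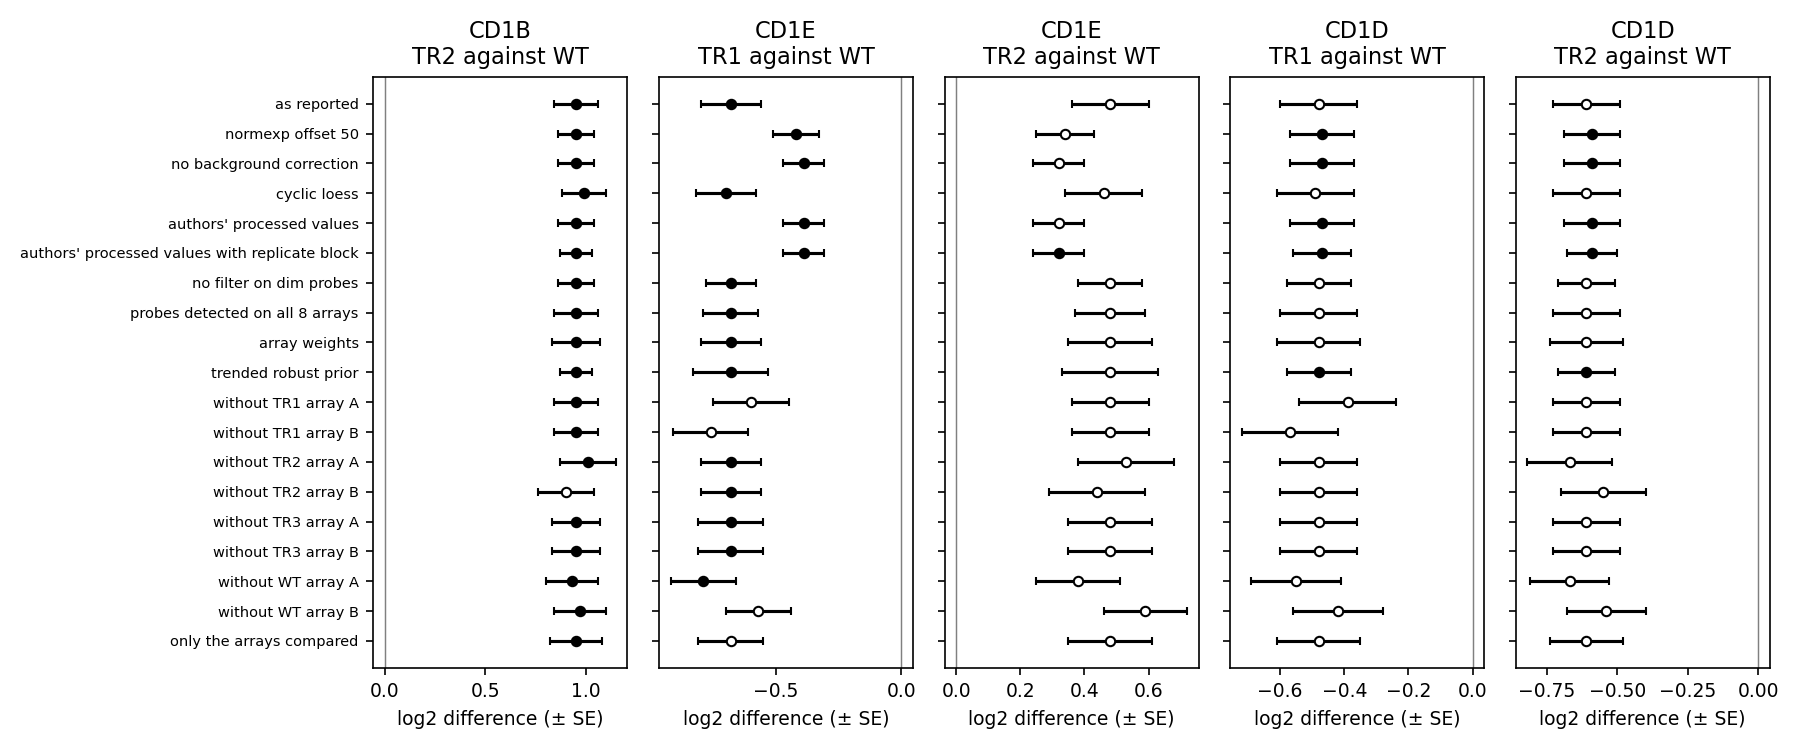
Log2 difference of CD1B, CD1E and CD1D against WT, with SE bars, in the main test (top) and under each alternative; filled points passed an adjusted p of 0.05. CD1B in TR2 stays between 0.90 and 1.01, CD1E in TR1 ranges from -0.79 to -0.39, and the CD1D points are filled only with the larger offset, without background correction, on the authors' values and with the trended robust prior. The values without background correction and the authors' values without the block gave nearly the same estimates and are not separate checks.

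CD1A (probe ILMN_1723520), the group 1 member that samples early endosomes and is used to mark cortical thymocytes and Langerhans cells, had a raw signal of 1469.2 and 1541.5 in TR1, 1531.4 and 1523.2 in TR2, and 1383.2 and 1670 in TR3, against 1435.9 and 1816.5 in WT. The log2 values were 10.56 and 10.68 in TR1, 10.50 and 10.63 in TR2, 10.24 and 10.57 in TR3, and 10.40 and 10.87 in WT. The WT arrays span most of the range, and every clone overlaps WT. Differences from WT were -0.02 in TR1, -0.07 in TR2 and -0.23 in TR3, each with an SE of 0.17 (adjusted p = 0.97, 0.9 and 0.69). The 95% intervals reached from -0.39 to 0.36 for TR1 and from -0.60 to 0.14 for TR3. In the authors' processed values, which carry replicate numbers, CD1A was higher in replicate 2 than in replicate 1 in all 4 lines, by 0.12 in TR1, 0.12 in TR2, 0.32 in TR3 and 0.46 in WT on the log2 scale. CD1B was also higher in replicate 2 in all 4 lines, by 0.04 to 0.15, and the other 3 genes went both ways.

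CD1C (probe ILMN_1654210), a group 1 member that traffics through early and late endosomes, had a raw signal of 281.19 and 261.94 in TR1, 222.57 and 261.36 in TR2, and 290.02 and 341.7 in TR3, against 287.79 and 282.45 in WT. On the log2 scale it was 8.01 and 7.95 in TR1, 7.41 and 7.84 in TR2, 7.81 and 8.13 in TR3, and 7.93 and 7.97 in WT. TR2 array A is the lowest and TR3 array B the highest, and TR1, TR3 and WT overlap. Differences from WT were 0.03 in TR1, -0.33 in TR2 and 0.02 in TR3, each with an SE of 0.16 (adjusted p = 0.95, 0.46 and 0.99). The 95% interval for TR2 reached from -0.67 to 0.02. The F test gave an adjusted p of 0.41 for CD1C and 0.74 for CD1A.

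Against WT the count of CD1 probes called was 1 of 5 in TR1 (CD1E, lower), where 2.25% of all probes were called, and 1 of 5 in TR2 (CD1B, higher), where 0.632% were. In TR3, 0 of 5 were called by limma against WT, where 0.297% of all probes were, and 2 of 5 had an unadjusted p under 0.05, as had 10.1% of all probes. Between clones, 2 of 5 were called in TR2 against TR1, CD1B and CD1E, both higher, against 4.70% of all probes. For TR3 against TR2 the same 2 genes were called, both lower, against 0.784%. For TR3 against TR1, 0 of 5 were called by limma, against 1.52% of all probes, and 3 of 5 had an unadjusted p under 0.05, as had 14.7% of all probes. The replicate block gave 3 CD1 calls among the 4 lines, beside 1861 of the 13130 probes. Against WT it gave 2 CD1 calls in TR1, 3 in TR2 and 1 in TR3, beside 1151, 510 and 296 probes. For TR2 against TR1 it gave 2 CD1 calls beside 1481 probes, and for TR3 against TR1 it gave 1 beside 972. For TR3 against TR2 it gave 3 beside 504. The median log2 difference over the 5 probes was -0.02 in TR1, -0.07 in TR2 and -0.23 in TR3 against WT, and -0.05, -0.01 and -0.16 for TR2 against TR1, TR3 against TR1 and TR3 against TR2, while the medians over all tested probes lay between -0.016 and 0.016.

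**Figure D3:**
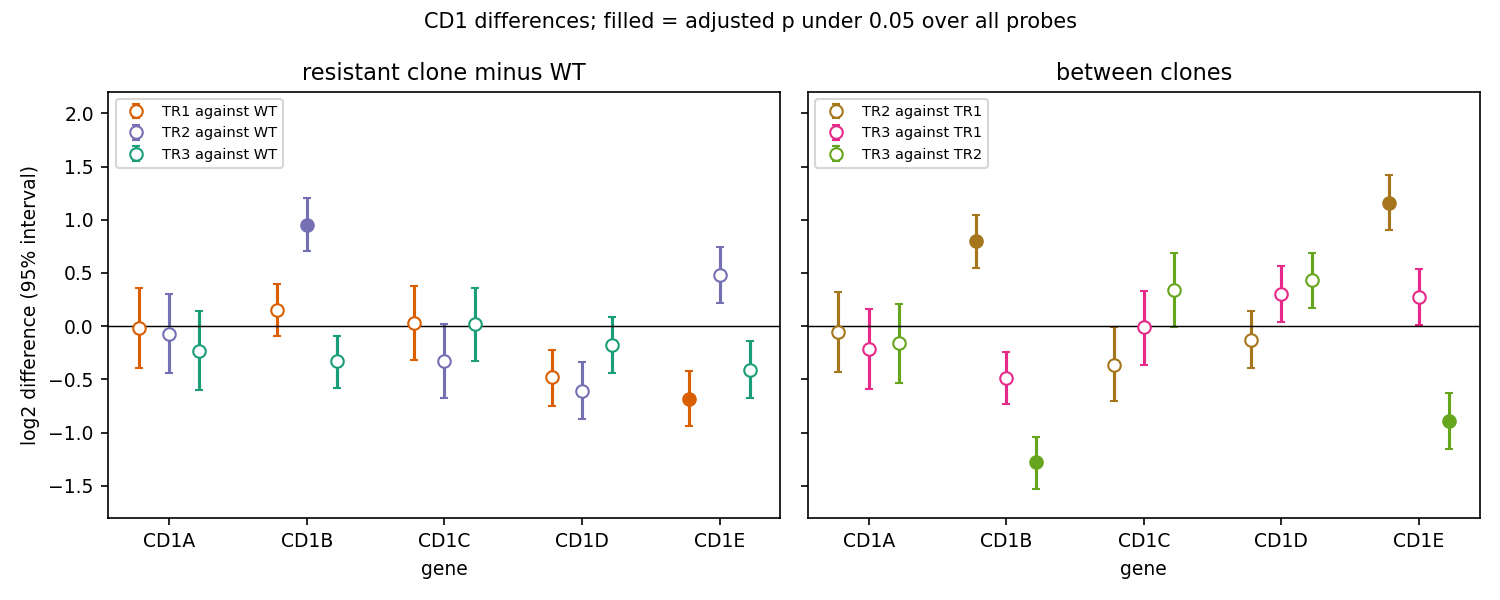
Log2 difference of each CD1 gene with its 95% confidence interval, for TR1, TR2 and TR3 against WT on the left and for the 3 pairs of clones on the right; filled points passed an adjusted p of 0.05. CD1B in TR2 (0.95) and CD1E in TR1 (-0.68) are filled on the left, and on the right CD1B and CD1E are filled for TR2 against TR1 (0.80 and 1.16) and for TR3 against TR2 (-1.28 and -0.89).

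Across the 8 arrays, CD1B and CD1E had a Pearson correlation of 0.73, and CD1B and CD1D one of -0.73. CD1B with CD1C gave -0.62 and CD1C with CD1E -0.63, and the other pairs lay between -0.16 and 0.32. These 8 points are 4 lines in duplicate, so they describe 4 levels and carry no test.

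Among 240 other genes whose line means spanned at least 1 on the log2 scale, those most like CD1B over the 8 arrays were CCDC26 (r = 0.951), CFTR (0.939), NEUROG2 (0.928), MARK1 (0.904) and WDR70 (0.898). The chloride channel gene CFTR had mean log2 levels of 5.59 in TR1, 9.82 in TR2 and 4.81 in TR3, against 6.09 in WT. Those most like CD1E were COL6A2 (0.978), GPR183 (0.974), AMDHD1 (0.964), KANK1 (0.963) and ENHO (0.963). GPR183, a receptor for oxysterols that positions lymphocytes, had mean log2 levels of 5.10 in TR1, 9.58 in TR2 and 5.80 in TR3, against 7.48 in WT, the same order of lines as CD1E. Some of these levels were near background, since cell type markers detected on no array lay between 4.21 and 4.78. MARK1 was in that range in TR1 (4.24), TR3 (4.26) and WT (4.34) and at 5.65 in TR2. Passing the filter and the span through TR2 alone builds in part of its likeness to CD1B. COL6A2 was also in that range in TR1 (4.60), and CFTR was just above it in TR3.

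For CD1D the most similar genes were GIMAP4 (0.946), ANKLE1 (0.924), EEF1A2 (0.899), IRF8 (0.808) and ADTRP (0.806). GIMAP4, a lymphocyte GTPase, had mean log2 levels of 10.27 in TR1, 9.46 in TR2 and 10.87 in TR3, against 11.38 in WT. IRF8, a transcription factor of myeloid and B cells, had 5.20 in TR1, 5.34 in TR2 and 6.35 in TR3, against 6.38 in WT. CD1A and CD1C, which varied less, had weaker neighbours, led by RORB (0.713), GZMA (0.604), NKX2-5 (0.594), EGR1 (0.583) and AFF3 (0.579) for CD1A. For CD1C they were ABCG1 (0.703), TMEM121B (0.69), TRIM68 (0.687), ALDOC (0.607) and TGIF1 (0.602). On the authors' processed values, 5 of these 5 genes stayed in the top 5 for CD1A, CD1C and CD1D, 3 for CD1B and 4 for CD1E.

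**Figure D4:**
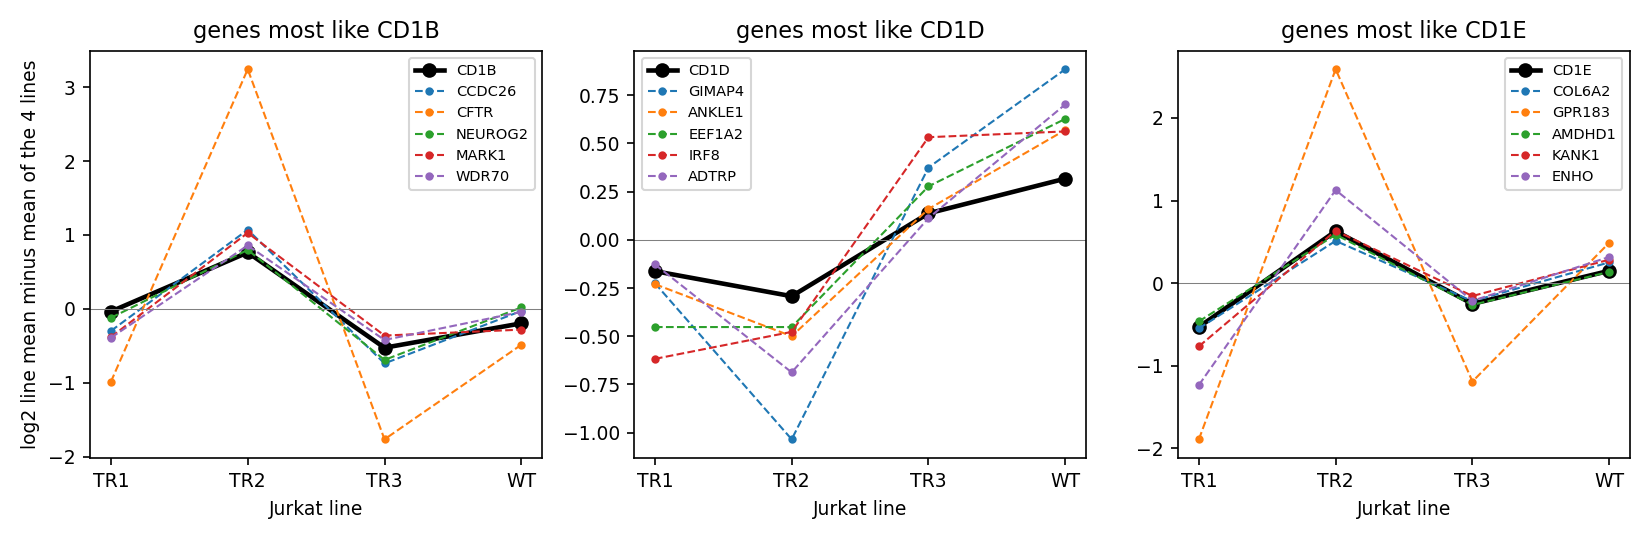
Difference of each line's mean log2 level from the mean over the 4 lines for CD1B, CD1D and CD1E (thick lines) and the 5 genes most correlated with each over the 8 arrays, with TR1, TR2 and TR3 left of WT. The genes drawn with CD1B peak in TR2, those with CD1E peak in TR2 with their lowest level in TR1, and those with CD1D are highest in WT.

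Partners that build CD1 molecules in the endoplasmic reticulum gave no call. Of 9 listed genes, 8 are on the array and 5 were tested, and limma called 0 in each of the 6 pairs of lines, with 0 to 1 at an unadjusted p under 0.05 and 0 to 1 called with the replicate block. Per pair of lines, limma called 0.297% to 4.70% of all probes, and 10.1% to 17.7% had an unadjusted p under 0.05. The block called 296 to 1481 of the 13130 probes. The same shares stand beside every list that follows. B2M, the light chain that all CD1 heavy chains need, differed from WT by -0.04 in TR1, -0.07 in TR2 and -0.02 in TR3 on the log2 scale, each with an SE of 0.12 (adjusted p = 0.91, 0.86 and 0.98).

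Of 20 genes of lipid loading and lipid antigen processing in endosomes, 14 were tested, and 1 was called in 1 pair of lines. That pair was TR2 against TR1, where 4.70% of all probes were called. NPC2, which binds cholesterol in lysosomes, averaged 11.71 in TR2 and 12.26 in TR1, a difference of -0.55 with an SE of 0.11 (adjusted p = 0.022). That call was lost without TR1 array B (-0.44, adjusted p = 0.15), TR2 array A (-0.54, 0.1) or TR2 array B (-0.56, 0.12). In the other pairs limma called 0 of 14, the unadjusted count being 1 to 4 over the 6 pairs and the count with the block 0 to 3. Of 21 sorting adaptors and trafficking genes, which carry CD1 molecules between the surface and endosomes, 18 were tested and limma called 0 in every pair, with 1 to 3 at an unadjusted p under 0.05 and 0 to 2 with the block.

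Among 18 factors listed as acting on CD1 promoters, 14 were tested. FLI1, an ETS factor, averaged 8.71 in TR2 and 9.39 in TR1, a difference of -0.68 with an SE of 0.10 (adjusted p = 0.004), a call kept without any 1 array. IKZF1, the Ikaros factor of lymphocytes, was higher in TR1 than in WT by 0.51 (adjusted p = 0.036) and lower in TR2 than in TR1, at a difference of -0.54 (adjusted p = 0.017). The TR1 difference of IKZF1 lost its call without any 1 of the 8 arrays (0.46 to 0.56, adjusted p = 0.054 to 0.17). Its difference between TR2 and TR1 lost its call without any 1 of the 4 arrays of those lines (-0.59 to -0.48, adjusted p = 0.053 to 0.14). In all, 1 of 14 was called in TR1 against WT, beside 2.25% of all probes. For TR2 against TR1, 2 of 14 were called, both lower, beside 4.70%, and limma called 0 in the other pairs. The unadjusted counts were 1 to 5 per pair, beside 10.1% to 17.7% of all probes, and those with the block 0 to 3.

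Genes of the cortical thymocyte stage, at which CD1 is normally made, were called in comparisons with TR1. Of 23 listed genes 19 were tested, and 4 were called in TR2 against TR1, where 4.70% of all probes were, of which DNTT, RAG1 and AEBP1 were higher and CD8A was lower. DNTT, the polymerase that adds nucleotides at V(D)J junctions, averaged 9.98 in TR1, 11.93 in TR2 and 11.73 in TR3, against 11.64 in WT. It was lower in TR1 than in WT, at a difference of -1.66 (adjusted p = 0.0019) and higher than in TR1 by 1.95 in TR2 (adjusted p = 0.00036) and by 1.75 in TR3 (adjusted p = 0.002), all kept without any 1 array. RAG1, the recombinase that starts V(D)J joining, was higher than in TR1 by 1.97 in TR2 (adjusted p = 0.0016) and by 1.65 in TR3 (adjusted p = 0.011). Its mean in TR1 was 5.06, which is near background. The TR3 call was lost without any 1 of the 4 arrays of TR3 and TR1 (1.57 to 1.72, adjusted p = 0.066 to 0.089).

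CD8A, a coreceptor, had mean log2 levels of 5.72 in TR1, 4.97 in TR2 and 4.85 in TR3, against 4.91 in WT. It was higher in TR1 than in WT by 0.81 (adjusted p = 0.011), and lower than in TR1, at a difference of -0.75 in TR2 (adjusted p = 0.0084) and of -0.88 in TR3 (adjusted p = 0.0092). Each CD8A call depended on 1 array: that against WT was lost when WT array A, WT array B or TR1 array A was left out (0.69 to 0.83, adjusted p = 0.053 to 0.097), that for TR2 without TR1 array A or TR2 array B (-0.63 and -0.62, adjusted p = 0.078 and 0.085), and that for TR3 without TR1 array A, TR3 array A or TR3 array B (-0.89 to -0.75, adjusted p = 0.08 to 0.089). AEBP1 was higher in TR2 than in TR1 by 0.85 (adjusted p = 0.045), and lost its call without any 1 array of TR1, TR2 or TR3 (0.64 to 1.06, adjusted p = 0.052 to 0.28), without a filter on dim probes (adjusted p = 0.13), with cyclic loess (0.052) and on the compared arrays alone (0.051). In the list as a whole 2 of 19 were called in TR1 against WT, beside 2.25% of all probes, and 3 of 19 in TR3 against TR1, beside 1.52%, and limma called 0 in TR2 against WT, TR3 against WT and TR3 against TR2. Unadjusted counts per pair were 1 to 8, beside 10.1% to 17.7% of all probes, and the block gave 0 to 8 calls, beside 296 to 1481 of the 13130 probes.

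Of 9 genes of T cells that recognise CD1, 5 were tested, and 1, ZBTB16, was called. Over all probes, 2.25% were called in TR1, 0.632% in TR2 and 0.297% in TR3 against WT, and 1.52% in TR3 against TR1. ZBTB16 encodes PLZF, the transcription factor of natural killer T cells, and averaged 7.71 in TR1, 7.96 in TR2 and 8.36 in TR3, against 7.04 in WT. It was higher than in WT by 0.68 in TR1 (adjusted p = 0.025), by 0.92 in TR2 (adjusted p = 0.011) and by 1.32 in TR3 (adjusted p = 0.0018), and higher in TR3 than in TR1 by 0.65 (adjusted p = 0.036). The call in TR3 against WT was kept without any 1 array. That in TR1 was lost without any 1 array of TR1 or WT (0.57 to 0.78, adjusted p = 0.053 to 0.14), that in TR2 without TR2 array A, TR2 array B or WT array A (0.82 to 1.01, adjusted p = 0.053 to 0.1), and that in TR3 against TR1 without any 1 clone array (0.53 to 0.76, adjusted p = 0.05 to 0.29). Limma called 0 of the 5 in TR2 against TR1 and TR3 against TR2, the unadjusted counts were 1 to 2 per pair, and the block gave 1 to 2 calls.

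Of 13 other proteins with the MHC fold, 9 were tested. Of these, 1 was called in TR1 against WT and in TR2 against TR1, beside 2.25% and 4.70% of all probes. FCGRT, the neonatal Fc receptor, averaged 10.77 in TR1, 10.02 in TR2 and 10.19 in WT. It was higher in TR1 than in WT by 0.58 (adjusted p = 0.038) and lower in TR2 than in TR1, at a difference of -0.74 (adjusted p = 0.006). The call against WT was lost without any 1 array of TR1, TR3 or WT (0.49 to 0.67, adjusted p = 0.069 to 0.2), and that in TR2 without TR1 array B or TR2 array B (-0.66 and -0.64, adjusted p = 0.057 and 0.068). In the other 4 pairs limma called 0 of the 9, the unadjusted counts were 0 to 1 over the 6 pairs, and the block gave 0 to 2 calls. Of the 20 genes that flank the CD1 cluster, 10 on each side, 17 are on the array and 4 were tested, ETV3, FCRL3, FCRL2 and FCRL1, and limma called 0 in every pair, with 0 at an unadjusted p under 0.05 and 0 with the block.

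The median log2 difference of a list over its tested genes lay, across the 6 pairs of lines, between -0.02 and 0.02 for assembly partners, between -0.10 and 0.06 for lipid loading, and between -0.02 and 0.06 for trafficking. It lay between -0.07 and 0.08 for promoter factors, between -0.10 and 0.01 for cortical thymocyte genes, and between -0.07 and 0.05 for the flanking genes. The lists of T cells that recognise CD1 (-0.20 to 0.21, 5 genes) and of other MHC-fold proteins (-0.18 to 0.14, 9 genes) had ranges wider than these, and those of B cells (-0.67 to 0.43, 3 genes), NK cells (-0.24 to 0.36, 2 genes) and monocytes (-0.36 to 0.38, 1 gene) were wider still, beside -0.016 to 0.016 over all tested probes.

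Dendritic and Langerhans cells are the other main source of CD1 transcripts, so their markers were read on the same arrays. Of 11 markers, ITGAX, BATF3, CD83 and LAMP3 were detected on all 8 arrays, and CD207, FCER1A, CD209, CLEC9A and FLT3 on none. Their summed linear intensity was 1697 to 1758 in TR1, 1728 to 1826 in TR2 and 1949 to 2140 in TR3, against 1810 to 2032 in WT, and limma called 0 of the 5 tested, with 0 to 2 at an unadjusted p under 0.05 and 0 to 1 with the block.

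Of 9 monocyte markers CD68 alone was detected on all 8 arrays, CD14, CSF1R, CD163 and S100A8 were detected on none, and the sums were 278 to 283 in TR1, 299 to 313 in TR2 and 290 in TR3, against 299 to 300 in WT. Limma called 0 of the 1 tested, with 0 to 1 at an unadjusted p under 0.05 and 0 to 1 with the block. Of 6 B cell markers on the array, CD79A, CD79B and BLK were detected on all 8 arrays and MS4A1, PAX5 and CD22 on none, with sums of 392 to 433 in TR1, 482 to 556 in TR2 and 517 to 609 in TR3, against 575 to 667 in WT. BLK was lower in TR1 than in WT, at a difference of -0.67 (adjusted p = 0.012), a call lost without TR1 array A (-0.63, adjusted p = 0.1), TR1 array B (-0.70, 0.058) or WT array B (-0.67, 0.064). Over all probes, 2.25% were called in TR1 against WT. In the other 5 pairs limma called 0 of the 3 tested B cell markers, with 1 to 3 at an unadjusted p under 0.05 over the 6 pairs and 0 to 3 with the block.

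Of 4 NK cell markers NCAM1 was detected on all 8 arrays and KLRF1 on none, with sums of 102 to 114 in TR1, 125 to 138 in TR2 and 116 to 122 in TR3, against 115 to 123 in WT. NCAM1 was higher in TR2 than in TR1 by 0.69 (adjusted p = 0.017), a call lost without TR1 array B (0.57, adjusted p = 0.12) or TR2 array B (0.53, 0.14). Over all probes, 4.70% were called in TR2 against TR1. In the other 5 pairs limma called 0 of the 2 tested NK cell markers, with 0 to 1 at an unadjusted p under 0.05 over the 6 pairs and 0 to 1 with the block. The highest sum on any array was in TR3 for the dendritic list and in TR2 for the monocyte and NK lists. For the B cell list it was in WT. These sums take in every listed marker on the array, also those not detected, so background is part of them. Markers other than CD68 and NCAM1 in the monocyte and NK lists lay between 4.26 and 5.03 on the log2 scale. For these lists the order of the lines can therefore reflect background. The part of the marker transcripts in the CD1 differences was not tested.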

How the data were processed

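RNA of the 4 lines was hybridised to 8 arrays, 2 per line. Per the file headers, the authors deposited linear probe intensity with a detection p-value beside every signal, as well as processed intensities of the same arrays whose scale and centring are not stated. The processed columns are linear and were brought to a common distribution, as their values show. The submitters' processing notes name limma, and the sources used here give no other upstream step. Raw columns carry letters while processed columns carry replicate numbers, and the headers do not link them. The replicate block was run on the processed values only. For each CD1 gene in each line, array B differed from array A in the same direction as replicate 2 from replicate 1. The number of unused columns was 0.

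Raw intensity was corrected with normexp, its background taken from the detection p-values (offset 16), quantile normalised and taken to log2 with limma 3.58.1 in R 4.3.3. The 13130 probes kept had a detection p-value below 0.05 on each array of 1 or more lines. Line means were fitted by lmFit and eBayes on the 8 arrays together (residual degrees of freedom 4, prior 5.65), and p-values were adjusted by Benjamini-Hochberg over all kept probes. The method was tested on simulated data. The number of arrays limits the precision. Of 22184 probes, 19715 carried 1 symbol, 2469 carried none and 0 carried several, and 19695 symbols were updated through GRCh38.p14.

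The CD1 genes, the lists and the tests were chosen with earlier results of these data known. Every CD1 probe is given. From the other lists up to 4 called genes per list and comparison are named, plus B2M, and the genes most like a CD1 gene are the 5 with the highest Pearson correlation over the 8 arrays. Each list gene was tested by its kept probe of highest mean, and the detection and sums of markers used the brightest probe. Other probes of a list gene are not covered, while the shares beside the lists are over all kept probes. In the authors' processed values, same-numbered samples of different lines deviated together in all 6 pairs of lines (r = 0.28 to 0.432). The replicate number was therefore taken to pair the samples, but it was fitted as a block in an alternative only. The main test fitted no block and did not use this pairing. Among the 4 lines it called 438 probes, while the authors' values gave 543 without the block and 1861 with it. A difference that the main test did not call is therefore not shown to be absent. Alternatives were the offset, no background correction, cyclic loess, the authors' values with and without the replicate block, other filters on dim probes, array weights, a trended robust prior, the compared arrays alone and leaving out each array.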

Additional observations from a re-analysis of the deposited data

Results flagged for a closer look

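The clones departed from WT differently for CD1B and CD1E, which the contrasts between clones test directly in limma. CD1B was higher in TR2 than in TR1 by 0.80 on the log2 scale (adjusted p = 0.0026), and lower in TR3 than in TR2, at -1.28 (adjusted p = 0.00043). CD1E was higher in TR2 than in TR1 by 1.16 (adjusted p = 0.00041), and lower in TR3 than in TR2, at -0.89 (adjusted p = 0.0065). The last of these lost its call without TR2 array B, TR3 array A or TR3 array B (adjusted p = 0.069, 0.059 and 0.075), and the others kept theirs without any 1 array.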

How the results depend on the processing

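CD1B and CD1E kept their direction under every alternative run, and both calls in the F test over the lines were kept when any 1 array was left out. With the replicate block on the authors' values, calls over all probes were 1861 among the 4 lines, 1151, 510 and 296 in TR1, TR2 and TR3 against WT, 1481 in TR2 against TR1, 972 in TR3 against TR1 and 504 in TR3 against TR2, and CD1 calls were 3 among the lines, 2, 3 and 1 against WT, 2 in TR2 against TR1, 1 in TR3 against TR1 and 3 in TR3 against TR2. The block changed no other call of a CD1 gene than those given with each gene. Without a filter on dim probes, 278 probes were called among the lines, 169, 46 and 17 against WT, and 108 in TR3 against TR1. Among probes detected on all 8 arrays, the calls were 191, 45 and 17 against WT and 59 in TR3 against TR2. On the compared arrays alone 166 were called in TR1 and 20 in TR3 against WT, and 0 CD1 probes in TR1. The trended robust prior called 127 probes in TR2 and 59 in TR3 against WT and 316 in TR3 against TR1, and array weights called 336 in the last. With an offset of 50, without background correction, on the authors' values and with the trended prior, CD1 calls were 3 among the lines. Under the same settings they were 2 in TR1 and 2 in TR2 against WT and 1 in TR3 against TR1. Array weights gave 1 in TR3 against TR1. The cause of these shifts was not tested. The values without background correction and the authors' values without the block gave nearly the same estimates. Each called 543 probes among the lines, so these 2 alternatives are not separate checks.

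Leaving out 1 array, calls over all probes ranged from 244 to 480 among the lines, 110 to 262, 28 to 76 and 11 to 32 in TR1, TR2 and TR3 against WT, 251 to 646 in TR2 against TR1, 63 to 208 in TR3 against TR1 and 39 to 104 in TR3 against TR2. CD1 calls ranged from 0 to 1 in TR1, 0 to 1 in TR2 and 0 to 0 in TR3 against WT, and from 1 to 2 in TR3 against TR2. Among single genes that were not called, the sign of some differences turned when 1 array was left out. For CD1A the ranges were -0.25 to 0.22 in TR1, -0.31 to 0.17 in TR2 and -0.47 to 0.01 in TR3 against WT, -0.11 to 0.01 in TR2 against TR1 and -0.32 to 0.01 in TR3 against TR2. For CD1C they were -0.14 to 0.17 in TR3 against WT and -0.17 to 0.14 in TR3 against TR1, which was 0.00 with cyclic loess. For B2M they were -0.09 to 0.01 in TR1 and -0.15 to 0.12 in TR3 against WT, -0.10 to 0.04 in TR2 against TR1, -0.11 to 0.16 in TR3 against TR1 and -0.08 to 0.19 in TR3 against TR2. Of the list genes called, FCGRT in TR1 against WT lost its call without a filter on dim probes (adjusted p = 0.068), with array weights (0.064) and on the compared arrays alone (0.093), and IKZF1 in TR1 against WT with array weights (0.061) and on the compared arrays (0.11). The compared arrays alone also ended the calls of NCAM1 (0.054) and NPC2 (0.054) in TR2 against TR1 and of ZBTB16 in TR1 against WT (0.058). Without a filter on dim probes RAG1 in TR3 against TR1 (0.067), ZBTB16 in TR1 against WT (0.055) and ZBTB16 in TR3 against TR1 (0.076) lost theirs.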
